A study of Mus musculus with 2 samples.

Results

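The genes followed here, in cultured mouse ureters, serve the synthesis, breakdown, transport and response to retinoic acid: Aldh1a1, Aldh1a2, Aldh1a3, Dhrs3, Cyp26a1, Cyp26b1, Crabp1, Crabp2, Rarb and Tgm2. They were taken by name, as every non-control probe that the array design assigns to one of these 10 genes, of 22316 genes or unnamed features measured, which gave 13 probes of 39429. Rarb has 3 probes, Tgm2 has 2 and each other gene has 1, and each probe was printed as 4 spots. All 10 genes passed the filter on dim probes.

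Per the labels, ureters of wild-type NMRI mouse embryos, of mixed sex and taken at E13.75, an embryonic stage counted in days, were kept on transwell membranes for 18 h. One group received 10 µg/ml NOGGIN, an extracellular antagonist of bone morphogenetic protein (BMP) ligands, and the control group had medium without it. Amplified total RNA was hybridised to 2 arrays in 2 colours, so that an array carried 1 NOGGIN and 1 control sample, with AlexaFluor555 (green) on NOGGIN RNA of array 1, AlexaFluor647 (red) on NOGGIN RNA of array 2, and the other dye on the control. The labels number the samples without saying that they came from separate litters, so p-values measure the spread between these samples only. The arrays differ in dye and no dye term could be fitted, so the spread between arrays also holds any dye effect of a probe. Whole ureters hold epithelium and several mesenchymal layers, and fewer cells of a type and less RNA per cell cannot be told apart here.

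Retinoic acid is made from vitamin A (retinol), which is oxidised first to retinaldehyde and then, by the ALDH1A enzymes, to retinoic acid. It binds nuclear retinoic acid receptors, which sit on DNA elements near their target genes, and CYP26 enzymes clear it, so that several of its targets act to lower it again. In the embryonic mouse ureter retinoic acid signalling is known to hold epithelial and mesenchymal progenitors back from differentiation.

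The best known of these elements, a direct repeat of a 6-base motif with 5 bases in between (DR5), is a textbook feature of the promoters of Rarb and Cyp26a1, and the sequences are shown because these genes are the receptor and the degrading enzyme whose transcripts report on the pathway. The search covered the 250 bases before each annotated start in RefSeq (GRCm38.p6) and took both strands of the letters GTTCANNNNNNGTTCA, GTTCANNNNNNGGTCA, GGTCANNNNNNGTTCA and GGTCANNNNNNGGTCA. In this search and the one below, the first base of each 6-base motif was left free. A DR5 match therefore starts at the second base of the first motif and spans 16 bases. RefSeq windows matched 7 of the 10 genes, with 10 windows in all. A match stood in 2 of these windows, those of Rarb and Cyp26a1, and in 69 of all 32851 windows (0.21%). The Rarb window lies at chr14:16575477-16575726 on the minus strand, and the Cyp26a1 window at chr19:37697558-37697807 on the plus strand. Capitals mark the match.
Rarb: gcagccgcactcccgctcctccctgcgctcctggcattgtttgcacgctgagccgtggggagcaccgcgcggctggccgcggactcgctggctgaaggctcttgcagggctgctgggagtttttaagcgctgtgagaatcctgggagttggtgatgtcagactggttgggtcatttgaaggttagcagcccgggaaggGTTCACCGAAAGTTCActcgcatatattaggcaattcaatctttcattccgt
Cyp26a1: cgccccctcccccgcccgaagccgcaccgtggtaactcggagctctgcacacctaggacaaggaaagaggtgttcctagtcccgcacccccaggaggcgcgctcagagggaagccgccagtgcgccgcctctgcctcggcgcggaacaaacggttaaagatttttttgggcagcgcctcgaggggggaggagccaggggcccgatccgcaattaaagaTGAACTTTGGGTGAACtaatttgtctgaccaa

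The Rarb match spans bases 52 to 37 before the start on the strand of the gene, and the Cyp26a1 match spans bases 32 to 17 before the start on the opposite strand. Read on its own strand, the Cyp26a1 match is GTTCACCCAAAGTTCA. It equals the Rarb match at 15 of 16 positions and differs by G8C, counted from the 5′ end with the Rarb base first. A repeat with 2 bases in between (GTTCANNNGTTCA, GTTCANNNGGTCA, GGTCANNNGTTCA or GGTCANNNGGTCA) was in 0 of the 10 windows and in 0.292% of all windows. A match describes the letters of a window and does not show binding.

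Which channel held NOGGIN RNA is given differently by the labels and by the deposited values. By the dye labels, the BMP target Id1 was higher in the NOGGIN-labelled channel, with a log2 ratio of 2.14 ± 0.09 (SD, n = 2), whereas the authors' deposited table, whose titles set NOGGIN against control, gives Id1 the signed values -4.65 and -4.53. Signed values here follow the dye labels, as NOGGIN-labelled over control-labelled channel, and every sign turns if the dye labels are exchanged. An antagonist of BMP ligands would be thought to lower a BMP target, the direction of the deposited values and not of the dye labels. Directions below describe the labelled channels and are not stated as the response to NOGGIN. On array 2 interferon-induced genes also stood apart: the median log2 ratio of 6 such genes, all higher on both arrays in the NOGGIN-labelled channel, was 0.64 on array 1 and 3.15 on array 2, so the value of each array is given beside the mean of each of the 10 genes. All 5 markers of ureteric mesenchyme and smooth muscle and all 6 urothelial markers passed the filter on dim probes. Over all probes, 76.9% (array 1) and 76.4% (array 2) were above background in green, against 65.3% and 66.4% in red. All numbers called signals are normalised intensities after loess and are compared within a probe, since brightness does not rank one gene against another.

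Of the 10 genes, 2 were at least 1.5-fold apart in the same direction on both arrays: Tgm2, lower in the NOGGIN-labelled channel, and Cyp26a1, higher in it. Over all 22316 genes or unnamed features tested, 2.19% passed this rule, 0.941% as higher and 1.25% as lower. By limma's moderated test, adjusted over all features, 0 of the 10 genes passed 0.05, as did 0% of all features, and 5 of the 10 had an unadjusted p under 0.05, against 6.04% of all features. Of those 5, 2 were higher (Cyp26a1 and Aldh1a3; 2.68% of all features were) and 3 were lower (Tgm2, Aldh1a2 and Cyp26b1; 3.36% of all features were). The signs of the 10 genes differed: 3 were higher on both arrays (20.4% of all features were), 6 were lower on both (23.3% were) and Rarb was opposite, so that 9 of 10 kept 1 sign, against 43.7% of all features. Their median log2 ratio was -0.22, with -0.08 on array 1 and -0.27 on array 2, and the median of all features was -0.006, with 0.02 and -0.05. The 2 signals of the NOGGIN-labelled channel lay both above or both below those of the control-labelled channel for 8 of the 10 genes, against 32.2% of all features. Over all features, the log2 ratios of the 2 arrays were only weakly related (Pearson correlation 0.18, Spearman correlation -0.07).

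**Figure D1:**
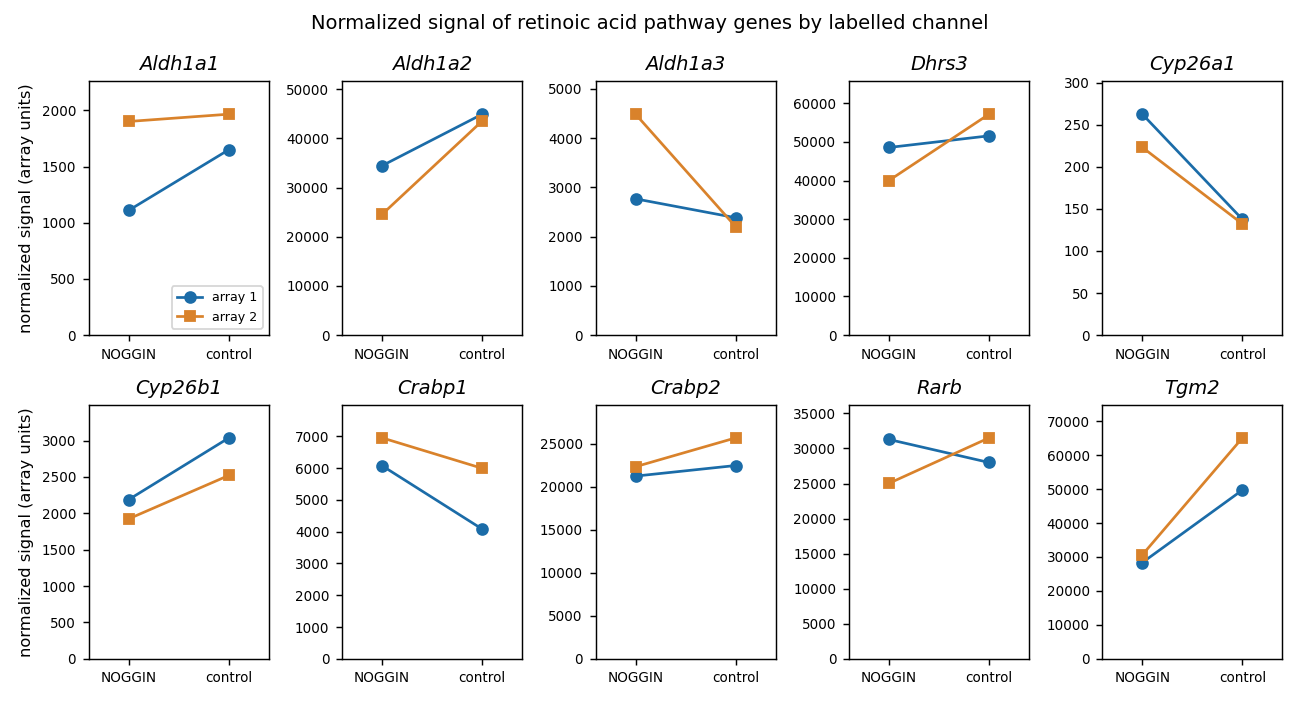
Normalised signal (vertical axis, array units, starting at 0) of the brightest probe of each gene in the NOGGIN-labelled and the control-labelled channel; each line joins the 2 channels of 1 array. Both lines fall toward the NOGGIN-labelled channel for Tgm2, Aldh1a2 and Cyp26b1 and rise toward it for Cyp26a1, and the lines of Rarb run in opposite directions.

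Among the enzymes of synthesis, the mesenchymal enzyme and the epithelial enzyme of the developing ureter had ratios of opposite sign. Aldh1a2, the retinaldehyde dehydrogenase that makes most retinoic acid in embryonic mesenchyme, had signals of 34472 and 24582 in the NOGGIN-labelled channel of arrays 1 and 2, against 44943 and 43572 in the control-labelled channel. Both NOGGIN-labelled values lay below both control-labelled values. The log2 ratio was -0.38 on array 1 and -0.83 on array 2, with a mean of -0.60 ± 0.31 (SD, n = 2; 95% interval of the fit -1.07 to -0.14; limma adjusted p = 0.549), and 95.8% of all features had a smaller absolute mean. The probe lies on chromosome 9, 71143931 to 71143990 (mm9, the build of the array design).

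Aldh1a3, a retinaldehyde dehydrogenase of embryonic epithelia, had signals of 2767 and 4486 in the NOGGIN-labelled channel, against 2384 and 2202 in the control-labelled channel. The groups did not overlap, but the distance came mostly from array 2, where the log2 ratio was 1.03, against 0.21 on array 1. Its mean was 0.62 ± 0.57 (SD, n = 2; 95% interval 0.02 to 1.22; limma adjusted p = 0.788). On array 1 the 3 spots used ran from -0.06 to 0.38, and on array 2 the 4 spots ran from 0.93 to 1.14.

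Aldh1a1, the remaining enzyme of this kind, had signals of 1111 and 1902 in the NOGGIN-labelled channel, against 1651 and 1967 in the control-labelled channel, and these overlap. Its log2 ratio was -0.57 on array 1 and -0.05 on array 2 (mean -0.31 ± 0.37, limma adjusted p = 1.00). The mouse genome holds a close copy of this gene, Aldh1a7, and whether the Aldh1a1 probe also reads it was not tested.

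Dhrs3 encodes a reductase that turns retinaldehyde back into retinol and so works against synthesis. Its signals were 48566 and 40017 in the NOGGIN-labelled channel, against 51579 and 57185 in the control-labelled channel, without overlap. The log2 ratio was -0.09 on array 1 and -0.52 on array 2, with a mean of -0.30 ± 0.30 (SD, n = 2; 95% interval -0.76 to 0.16), an interval that includes 0.

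The 2 enzymes of breakdown also had opposite signs, and each kept its sign on both arrays. Cyp26a1, the cytochrome P450 that degrades retinoic acid and is itself switched on by it, had signals of 263 and 223 in the NOGGIN-labelled channel, against 138 and 132 in the control-labelled channel. The log2 ratio was 0.93 on array 1 and 0.76 on array 2, with a mean of 0.84 ± 0.13 (SD, n = 2; 95% interval 0.43 to 1.26; limma adjusted p = 0.223). In absolute size, 97.9% of all features had a smaller mean. The probe (chromosome 19, 37775566 to 37775625, mm9) is dim. In the red, control-labelled channel of array 1, 3 of 4 spots were well above background, and all 4 in the other 3 channels. The mean of this dim probe depended on the processing, and became 1.47 on the scanner's processed signals and 1.42 on the authors' deposited values, turned to the sign of the dye labels. In the authors' deposited table itself the probe has -2.96 and -2.43, of the same sign as Id1.

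Cyp26b1, the related enzyme that clears retinoic acid in mesenchymal tissues, had signals of 2189 and 1924 in the NOGGIN-labelled channel, against 3037 and 2521 in the control-labelled channel. The groups did not overlap. The arrays gave -0.47 and -0.39, a mean of -0.43 ± 0.06 (SD, n = 2; 95% interval -0.83 to -0.03; limma adjusted p = 0.757). The spots within an array lay further apart than the 2 array means: they ran from -0.80 to -0.18 on array 1 and from -0.88 to -0.02 on array 2. Cyp26c1, the other member of this enzyme family, was not well above background in any spot.

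**Figure D2:**
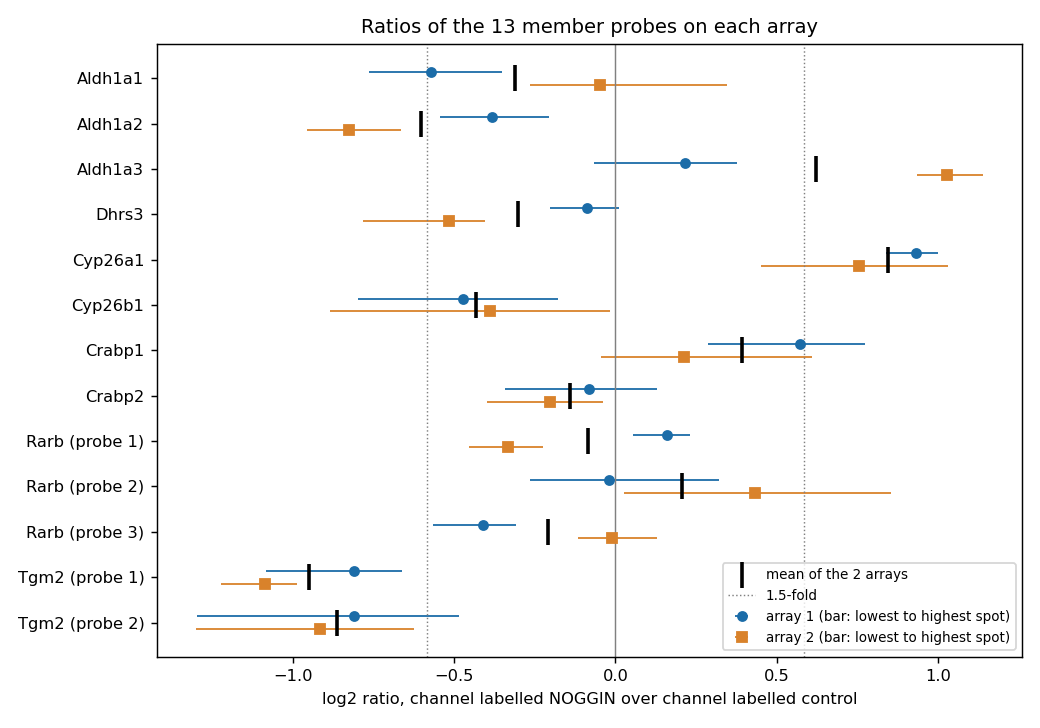
Log2 ratio, NOGGIN-labelled over control-labelled channel (horizontal axis), of the 13 probes on each array; points are means of the spots used, bars run from the lowest to the highest spot, black ticks are the mean of both arrays and dotted lines mark 1.5-fold. Both probes of Tgm2 and the probe of Cyp26a1 lie beyond 1.5-fold on both arrays, on opposite sides, while the 3 probes of Rarb scatter around 0.

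The carriers of retinoic acid had ratios of opposite sign. Crabp1, a cytoplasmic binding protein, had signals of 6072 and 6950.1 in the NOGGIN-labelled channel, against 4079 and 5992 in the control-labelled channel, with ratios of 0.57 and 0.21 and a mean of 0.39 ± 0.25 (SD, n = 2; 95% interval -0.05 to 0.84). Crabp2, the binding protein that hands retinoic acid to its nuclear receptors, had signals of 21233 and 22325 in the NOGGIN-labelled channel, against 22463 and 25674 in the control-labelled channel. Its ratios were -0.08 and -0.20, with a mean of -0.14 ± 0.09 (SD, n = 2; 95% interval -0.55 to 0.26). Neither pair of signals overlapped, and both intervals include 0.

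Rarb, the retinoic acid receptor gene with a DR5 match before its start, showed no common direction. Its brightest probe (chromosome 14, 17263367 to 17263426, mm9, minus strand) had signals of 31282 and 25026 in the NOGGIN-labelled channel, against 27998 and 31509.7 in the control-labelled channel. Those values overlap, and the log2 ratio was 0.16 on array 1 and -0.33 on array 2 (mean -0.09 ± 0.35, SD, n = 2; 95% interval -0.57 to 0.40). A second probe, 1221 bases away in the same transcripts, gave -0.02 and 0.43, the reverse order, with a mean of 0.21 ± 0.32. The remaining probe lies 386716 bases further upstream, at 17651424 to 17651483, and its accession list in the design holds NM_001289760 and NM_001289761 but not NM_011243, so it reads only some transcripts of the gene. It was dim, with signals of 105 and 106 in the NOGGIN-labelled channel, against 139 and 107.2 in the control-labelled channel. None of its spots was well above background in the NOGGIN-labelled channel of array 2, which was red. Its ratios were -0.41 and -0.01. Rarb and Cyp26a1, whose matches differ at 1 of 16 letters, had log2 ratios of 0.16 and 0.93 on array 1 and of -0.33 and 0.76 on array 2. The brightest Rarb probe reads several transcripts of the gene, and which of them begin at the start with the match was not tested.

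Tgm2, which encodes the protein-crosslinking enzyme tissue transglutaminase and is induced by retinoic acid in several cell types, was represented by 2 probes. Its brightest probe (chromosome 2, 157942275 to 157942334, mm9, minus strand) had signals of 28351 and 30621 in the NOGGIN-labelled channel, against 49711 and 65074 in the control-labelled channel. The groups lie apart on both arrays. The log2 ratio was -0.81 on array 1 and -1.09 on array 2, with a mean of -0.95 ± 0.20 (SD, n = 2; 95% interval -1.38 to -0.52; limma adjusted p = 0.196), and 98.4% of all features had a smaller absolute mean. The second probe, 96 bases away and so no separate sample, gave -0.81 and -0.91 (mean -0.86 ± 0.07). On the authors' deposited table the same 2 probes had signed values of 1.92 and 1.93, and of 1.78 and 1.92, again of opposite sign to Id1.

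Beyond these 10 genes, 44 other genes of the retinoid pathway were listed by role, of which 39 passed the filter on dim probes. Adh1 alone met the 1.5-fold rule, as higher, and 0 met it as lower. By limma 0 of the 39 passed after adjustment, and 4 had an unadjusted p under 0.05 (Adh1, Rarres1, Rdh10 and Lrat), against 6.04% of all features. The median log2 ratio of the 39 was 0.006, beside -0.006 for all features, and 17 of 39 had the same sign on both arrays, against 43.7% of all features. Signals of the 2 channels did not overlap for 12 of the 39, against 32.2%.

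Adh1, an alcohol dehydrogenase that can oxidise retinol to retinaldehyde, had signals of 20167 and 25320.2 in the NOGGIN-labelled channel, against 10293 and 11976 in the control-labelled channel. The values lie well apart, with ratios of 0.97 and 1.08 and a mean of 1.03 ± 0.08 (SD, n = 2; limma adjusted p = 0.156). Rdh10, the retinol dehydrogenase that carries out this step in the embryo, had the opposite sign, with signals of 6406 and 6138 in the NOGGIN-labelled channel, against 10135 and 8368 in the control-labelled channel, with ratios of -0.66 and -0.45 and a mean of -0.55 ± 0.15 (SD, n = 2). Lrat, which stores retinol as an ester, had -0.43 and -0.61 (mean -0.52 ± 0.13). The other 12 measured genes of uptake, storage and retinol oxidation had means between -0.32 (Stra6) and 0.26 (Dhrs4), and both of these changed sign between the arrays.

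Rxra, a partner of the retinoic acid receptors, had log2 ratios of 0.39 on both arrays with its brightest probe and of 0.10 and 0.14 with its other kept probe. The brightest probe of Rxrg, another such partner, had -0.36 and 0.81, and its other kept probe had 0.49 and 0.34. The brightest probe of the co-repressor gene Ncor1 had a log2 ratio of 0.12 on array 1 and of -0.70 on array 2, with a mean of -0.29. The means of its other 3 kept probes ran from -0.01 to 0.24, so its probes had no common sign. The lipid carriers Fabp5 and Rbp7 had means of 0.26 and -0.15. Among response genes, Rarres1, named for its induction by retinoids, had 0.47 and 0.61 (mean 0.54 ± 0.10, SD, n = 2), and the homeobox gene Meis2 had -0.24 and -0.37 (mean -0.31 ± 0.09).

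**Figure D3:**
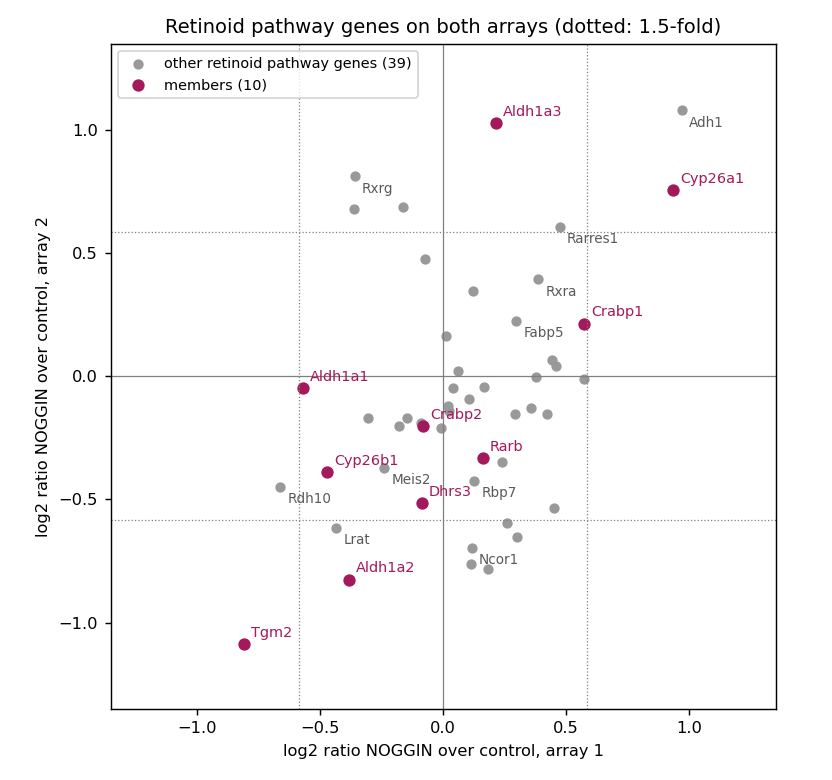
Log2 ratio, NOGGIN-labelled over control-labelled channel, on array 1 (horizontal axis) and array 2 (vertical axis) for the 10 genes (magenta) and the 39 other measured retinoid genes (grey); dotted lines mark 1.5-fold. Tgm2 lies beyond 1.5-fold in the lower left corner, Cyp26a1 and Adh1 in the upper right one.

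Marker genes of several cell types had ratios of 1 sign on both arrays, and the shares of all features for lower and for higher on both are 23.3% and 20.4%. All 4 adventitial fibroblast markers were lower on both arrays (summed signal 305781 and 319263 in the NOGGIN-labelled channel, against 412639 and 419079 in the control-labelled channel). So were 3 of 4 mesothelial markers (summed signal 7049 and 7338 in the NOGGIN-labelled channel, against 11375 and 12457 in the control-labelled channel); Upk3b was the exception. The same held for 4 of 5 markers of ureteric mesenchyme and smooth muscle, all but Tbx18 (summed signal 125234 and 177843 in the NOGGIN-labelled channel, against 259002 and 222636 in the control-labelled channel). Among the mesothelial markers, Wt1 had a mean log2 ratio of -0.90 ± 0.02 and Upk3b, with the opposite sign, of 0.89 ± 0.04 (SD, n = 2). Lrrn4 had a mean of -0.77 and Msln of -0.35. Aldh1a2 is also active in mesothelium. Of 6 urothelial markers, 2 were higher and 1 was lower on both arrays. Trp63 was neither by its brightest probe (-0.20 and 0.15), but its other kept probes had 0.78 and 0.80, and 0.64 and 0.25. Of 5 nephron markers, 4 were lower on both arrays and Podxl was higher, with a mean of 0.28. The summed signal of the 5 was 9767 and 8294 in the NOGGIN-labelled channel, against 10948 and 9097 in the control-labelled channel. Lhx1 had -0.72 and -1.52, while Six2, Cited1 and Nphs1 had means of -0.17, -0.16 and -0.08. Nphs1 was dim. None of its spots was well above background in the NOGGIN-labelled channel of array 2 or the control-labelled channel of array 1, both red. Of 3 endothelial markers, Cdh5 and Pecam1 were higher on both arrays and none was lower on both (summed signal 41184 and 41693 in the NOGGIN-labelled channel, against 33075 and 40572 in the control-labelled channel). The remaining lists had no common direction. Macrophage markers were split, with 1 of 3 lower and 1 higher on both arrays. For renal stroma 1 of 2 was lower on both, and for nerve and glia 1 of 3 was higher. Among the 2 measured red blood cell markers, 0 were lower and 0 higher on both. The part of cell composition in the values of Aldh1a2, Tgm2 or Rdh10 was not tested.

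Other ways of processing the spots kept the sign of all 10 means. Settings that changed only the filter on dim probes or the variance model, or that fitted each probe in place of each gene, left these means unchanged. The spread was widest for the dim Cyp26a1 probe, from 0.84 to 1.47, while Tgm2 stayed between -0.96 and -0.91 and Aldh1a2 between -0.66 and -0.58.

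**Figure D4:**
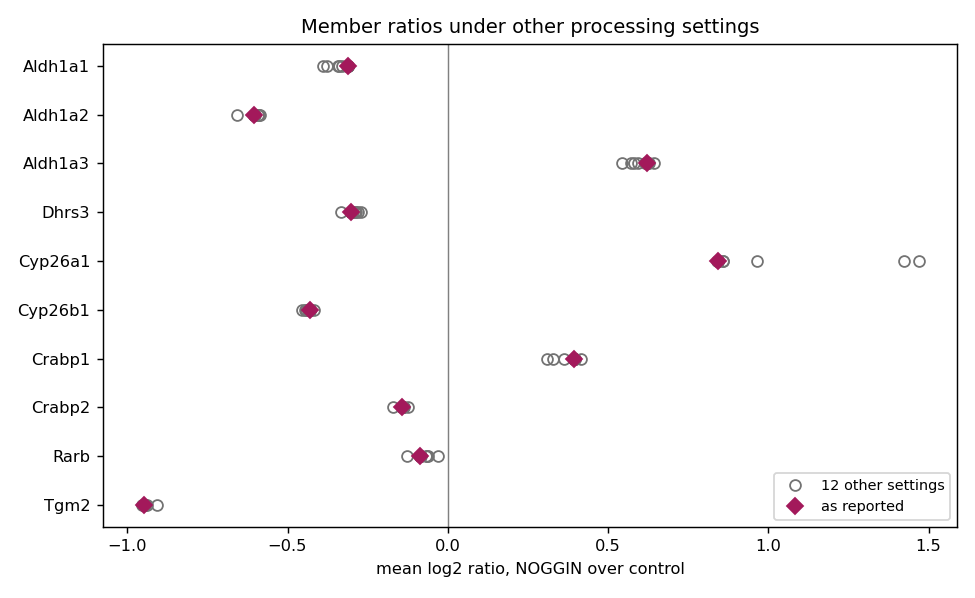
Mean log2 ratio, NOGGIN-labelled over control-labelled channel (horizontal axis), of each gene as reported (diamonds) and under 12 other processing settings (circles). No gene crosses 0, and Cyp26a1 has the widest range, from 0.84 to 1.47. Settings that changed only the filter on dim probes or the variance model, or that fitted each probe in place of each gene, have circles at the diamond.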

How the data were processed

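Per the file headers, each scanner file gives intensity values of every spot in both dyes and a log10 ratio of red over green, on a design with mm9 positions. The submitters' processing notes name Agilent Feature Extraction 10.7.3.1. A further table by the authors holds 1 score for each probe and array. By its values this deposited score is a signed linear fold change (both medians are 1, and nothing lies between -1 and 1). Its log2 form correlated at -0.891 and -0.943 over probes with the ratios as signed by the dye labels, and the sources used here do not give its normalization.

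Mean spot signals were corrected with normexp (offset 50), and loess followed within each array, in which control spots had weight 0 (R 4.3.3 with limma 3.58.1). Outlier spots (3.36% and 3.09%) were left out, 0 spots were saturated, and the spots that remained were averaged by probe. Probes were kept (29645) where over 0.5 of their spots stood well above background in 1 or both dyes on each array, and the brightest probe stood for a gene. Channel signals were scaled between arrays by Aquantile. Log2 ratios were fitted with lmFit and eBayes (1 residual and 4.34 prior degrees of freedom), two-sided, with Benjamini-Hochberg adjustment over 22316 features. Precision is limited by the number of arrays.

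The 10 genes, the other lists and the alternatives were chosen with earlier results of these data known, and the interferon list after seeing them. Named genes are the 10 members, Id1 for the dye labels, other retinoid genes past the 1.5-fold rule and otherwise at most 2 per role with the largest absolute mean. Stra6, Dhrs4 and the single markers were picked with their values in view. Some genes that the rule names are not reported here. Names were updated through RefSeq accessions (28328 probes matched). Exon and UTR annotation of mm9 was not used here.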

Additional observations from a re-analysis of the deposited data

How the results depend on the processing

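With 2 arrays the fit had 1 residual degree of freedom, and signal over background limits the dim probes of Cyp26a1 and of the upstream part of Rarb. No paired analysis was possible because there is none to add: the reported fit is itself paired, on ratios within an array that holds both conditions. The 10 genes gave 120 values under 12 other settings of the fit: 0 turned sign and 0 passed the adjusted p of 0.05. Settings that changed only the filter on dim probes or the variance model, or that fitted each probe in place of each gene, left every mean as reported. Those settings add nothing on the sign. The lowest adjusted p was 0.0579 for Cyp26a1, whose range was 0.0579 to 1.00, and 0.0703 for Tgm2 (0.0703 to 0.988), both with trend and robust variance, under which 141 of all features passed; 97 passed when both dyes had to be above background, 114 with median centring, 35 with no background correction and 22 with flagged spots kept. Tgm2 ran from -0.96 to -0.91 and Cyp26a1 from 0.84 to 1.47, its highest values being on processed signals (1.47) and on the authors' values with the sign turned (1.42). Tgm2 had the larger absolute mean of the pair as reported, and Cyp26a1 had it on both of these, with no background correction and on array 1 alone. The features past 1.5-fold, 488 as reported, were 853 on processed signals.

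With either array left out, the members past 1.5-fold were from 2 to 4, and the other retinoid genes past it from 2 to 11. These counts need 1.5-fold on a single array only, a looser rule than on both. The share of all features past 1.5-fold on a single array is not given here. Whether these counts are high for this array therefore cannot be judged. With either array left out, the members' median ran from -0.267 to -0.084. Rarb ran from -0.332 to 0.160, turning sign without array 2. At 2-fold on both arrays, 0 members and 0 other retinoid genes passed, and the share of all features at that rule is not given here. The causes were not tested.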
